A study of Mus musculus with 24 samples.

Results

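The dopamine system was followed through 10 genes, chosen by symbol: Th, Ddc, Slc18a2, Slc6a3, Nr4a2, Pitx3, Aldh1a1, Drd1, Drd2 and Ppp1r1b. All 10 were found among the 55421 genes counted in the left brain hemisphere of 24 mice, and 9 of them passed the filter on low counts that kept 14380 genes for testing. The exception was Pitx3, with 10 counts over all libraries. Mice were 3 months old, carried the strain label C57BL/6J and were either wild type or Nox2 knockout, Nox2 being the oxidase subunit with which phagocytes make superoxide and the allele not being named. They were injected into the abdomen once a day for 4 days with 100 µl of phosphate-buffered saline (PBS) or of lipopolysaccharide (LPS, an outer membrane component of gram-negative bacteria, here from Salmonella abortus equi) at a daily dose of 1 µg per g body weight. There were 6 animals in each of 4 groups, and 1 library came from each animal. The question put to these genes was how their transcript levels in the hemisphere stood after LPS in each genotype, and between the genotypes after each injection.

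Dopamine is made from tyrosine in a pair of steps, loaded into vesicles, released, and taken back up by a transporter on the dopamine neuron. Midbrain dopamine neurons send their axons to the striatum, where medium spiny neurons carry either the D1 receptor, which raises cyclic AMP, or the D2 receptor, which lowers it. Cells outside the midbrain share parts of this gene set: interneurons of the olfactory bulb express Th, and serotonin and noradrenaline neurons use the same vesicular transporter and the same decarboxylase. In RNA from a whole hemisphere, fewer cells of a type and less RNA per cell cannot be told apart.

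Promoter sequences are shown for the members in which a search for a pair of short motifs found a match, because Th and Slc18a2 share a motif while their levels showed no correlation past the threshold between libraries. The windows, taken from RefSeq on GRCm38.p6, reach from 250 bases before to 50 bases after a gene's start. They were present for 9 of the 10 genes in 12 windows, Ppp1r1b being the gene without a match in the table. The cyclic AMP response element (CRE), searched as TGACGTCA, reads the same on both strands and occurred in 588 of 32851 windows of all genes, or 1.79%. The NBRE, the element bound by receptors of the Nr4a family to which Nr4a2 belongs, was searched as AAAGGTCA on both strands, with TGACCTTT as its reverse, and occurred in 495 windows, or 1.51%. No match of one motif overlapped a match of the other. A match is a description of the letters in the window and was not tested for binding. In the sequences, written 5′ to 3′ along the gene's own strand, capitals mark the motif.
Th, minus strand, chr7:142899996-142900245, CRE at positions -45 to -38 from the start: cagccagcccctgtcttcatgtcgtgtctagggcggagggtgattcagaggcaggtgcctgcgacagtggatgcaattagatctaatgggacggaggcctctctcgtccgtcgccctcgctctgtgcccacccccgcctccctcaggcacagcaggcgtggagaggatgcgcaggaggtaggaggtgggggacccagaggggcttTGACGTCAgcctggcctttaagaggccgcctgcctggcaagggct
Slc18a2, plus strand, chr19:59260628-59260881, CRE at positions -4 to 4 around the start: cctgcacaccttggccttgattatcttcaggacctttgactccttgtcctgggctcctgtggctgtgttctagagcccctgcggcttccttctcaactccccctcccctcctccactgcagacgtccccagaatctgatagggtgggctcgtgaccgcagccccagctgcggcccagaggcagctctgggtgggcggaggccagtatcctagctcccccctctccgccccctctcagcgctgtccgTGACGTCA
Ddc, minus strand, chr11:11898145-11898394, NBRE on the opposite strand at positions -73 to -66: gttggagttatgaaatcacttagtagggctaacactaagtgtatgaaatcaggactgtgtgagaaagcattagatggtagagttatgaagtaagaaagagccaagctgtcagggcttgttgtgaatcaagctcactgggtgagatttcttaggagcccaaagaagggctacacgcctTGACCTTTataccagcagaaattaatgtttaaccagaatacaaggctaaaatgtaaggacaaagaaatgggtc
The CRE was thus in 2 of the 12 windows, those of Th and Slc18a2, and the NBRE in 1, the upstream of the 2 windows of Ddc.

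Libraries held 2340184 to 5256169 counts of 3′ tags, so that 1 count stood for 0.191 to 0.4305 CPM, the level scaled to library depth as counts-per-million. Cybb, which encodes Nox2, averaged 1.49 ± 0.65 CPM (SD, n = 6) after PBS and 24.6 ± 8.02 after LPS in wild type, and 67.5 ± 5.15 after PBS and 71.6 ± 4.01 after LPS in knockout. It was thus higher in the libraries labelled knockout, and as tags lie at the transcript's 3′ end and the disrupted part is not given, these counts do not check the genotype. Knockout below means the libraries labelled so. In markers of the olfactory bulb, summed over 10 genes, 3 wild type libraries stood apart: replicate 4 of the PBS group at 185.4 CPM, and replicates 1 and 2 of the LPS group at 169.2 and 150.7 CPM. The other 9 wild type libraries held 222.1 to 311.9 CPM and the 12 knockout libraries 149.3 to 209.7 CPM. This sum is weighted to Calb2 and Fabp7, with 12851 and 3390 counts over all libraries. The remaining markers ran from 134 counts for Scgn to 676 for Cdhr1. S100a5, a marker of mature olfactory sensory neurons whose axons end in the bulb, was at 0 counts in those 3 libraries and at 26 to 83 counts in the other wild type libraries. Knockout LPS replicate 4 held 2137 CPM of 8 pituitary markers, against at most 46.2 CPM in any other library. Results of the 10 genes that rest on wild type LPS replicates 1 and 2 are given with and without them.

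After LPS, Ddc rose in both genotypes, 1.34-fold in wild type and 1.34-fold in knockout. Nr4a2 fell by 17.8% in knockout, and Ppp1r1b rose by 13.6% in wild type. Slc6a3, Slc18a2, Drd1, Drd2 and Aldh1a1 passed the test in no comparison. Th had a lower level in knockout than in wild type, at 0.583-fold after PBS and 0.647-fold after LPS, without passing the test over all genes. Thus 2 of 9 tested members were called higher in wild type LPS, at an edgeR adjusted p under 0.05, against 18.1% of all genes called, 10.9% higher and 7.12% lower, in that comparison. In knockout LPS 1 member was called higher and 1 lower, against 10.9% of all genes called, 7.05% higher and 3.82% lower. With so few members these shares do not set them apart from other genes. Between genotypes edgeR called 0 of 9 members after PBS and 0 of 9 after LPS, beside 0.132% (0.0417% higher, 0.0904% lower) and 1.05% (0.264% higher, 0.786% lower) of all genes, and in the interaction, the LPS change in knockout minus that in wild type, 0 of 9 beside 0.00695%. At an unadjusted edgeR p under 0.05 those 3 comparisons held 2, 1 and 1 members, beside 1256, 1639 and 1407 of all 14380 genes. Counts of list genes at an unadjusted p, given below for these comparisons, stand beside the same numbers. DESeq2 called 0 members in each.

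**Figure D1:**
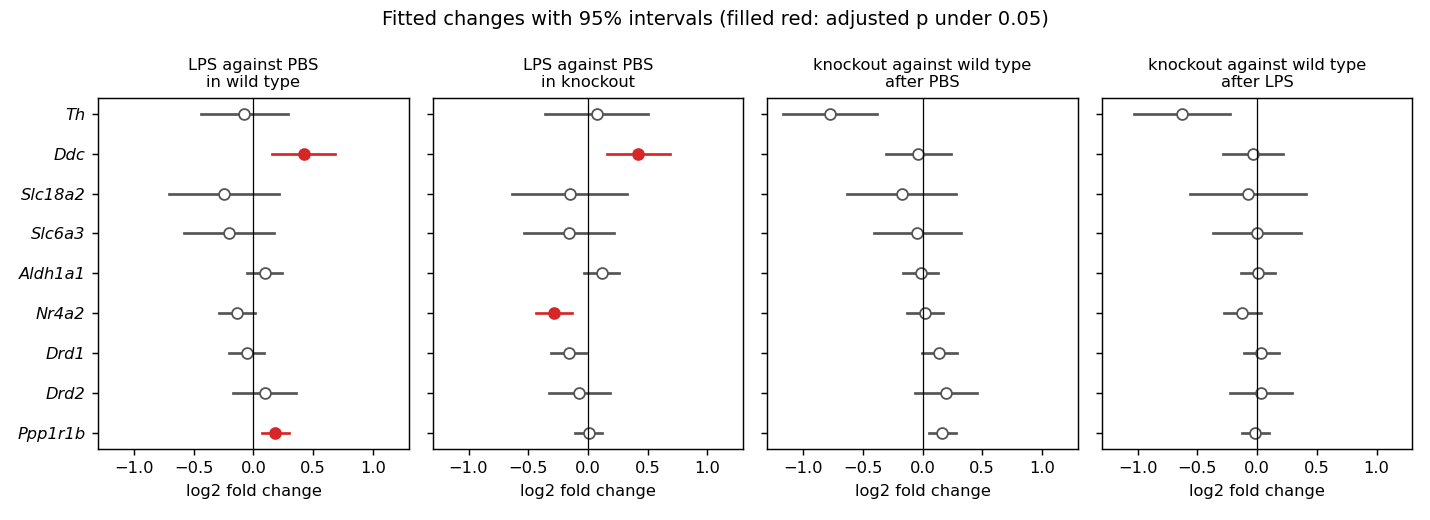
Fitted log2 fold changes of the 9 tested genes (horizontal axis) with 95% intervals, in the 4 comparisons of 2 groups; filled red symbols mark an adjusted p under 0.05. Ddc stands to the right of 0 in both LPS panels at 0.42, Nr4a2 to the left in knockout at -0.28, and Th to the left in both genotype panels at -0.78 and -0.63.

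Across all 24 libraries the genes spanned from 0.117 CPM for Pitx3 to 288.6 CPM for Ppp1r1b in the mean. Because the kit counts tags at the 3′ end of transcripts, the levels need no division by transcript length. The striatal signalling gene Ppp1r1b was followed by Nr4a2 at 113.9 ± 14.1 CPM (SD, n = 24), Drd1 at 65.7 ± 6.61 and Aldh1a1 at 63.2 ± 5.67. Below them came Ddc at 27.8 ± 6.81 CPM, Drd2 at 17.5 ± 2.67, Th at 10.99 ± 4.06, Slc18a2 at 9.30 ± 3.17 and Slc6a3 at 7.17 ± 1.58. Most neighbours in this order kept it in nearly every library, as Ddc lay above Drd2 in 23 of 24 and Drd2 above Th in 20 of 24. Drd1 and Aldh1a1 could not be ordered, with Drd1 higher in 16 of 24 libraries, nor could Th and Slc18a2, with Th higher in 12 of 24, or Slc18a2 and Slc6a3, with Slc18a2 higher in 16 of 24. The genes that mark midbrain dopamine neurons most narrowly were thus the scarcest. Slc6a3 had 12 to 41 counts per library, and of 18 further midbrain dopamine neuron genes, 7 did not pass the filter, among them the transcription factors Lmx1a, Lmx1b, Foxa1 and Foxa2.

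**Figure D2:**
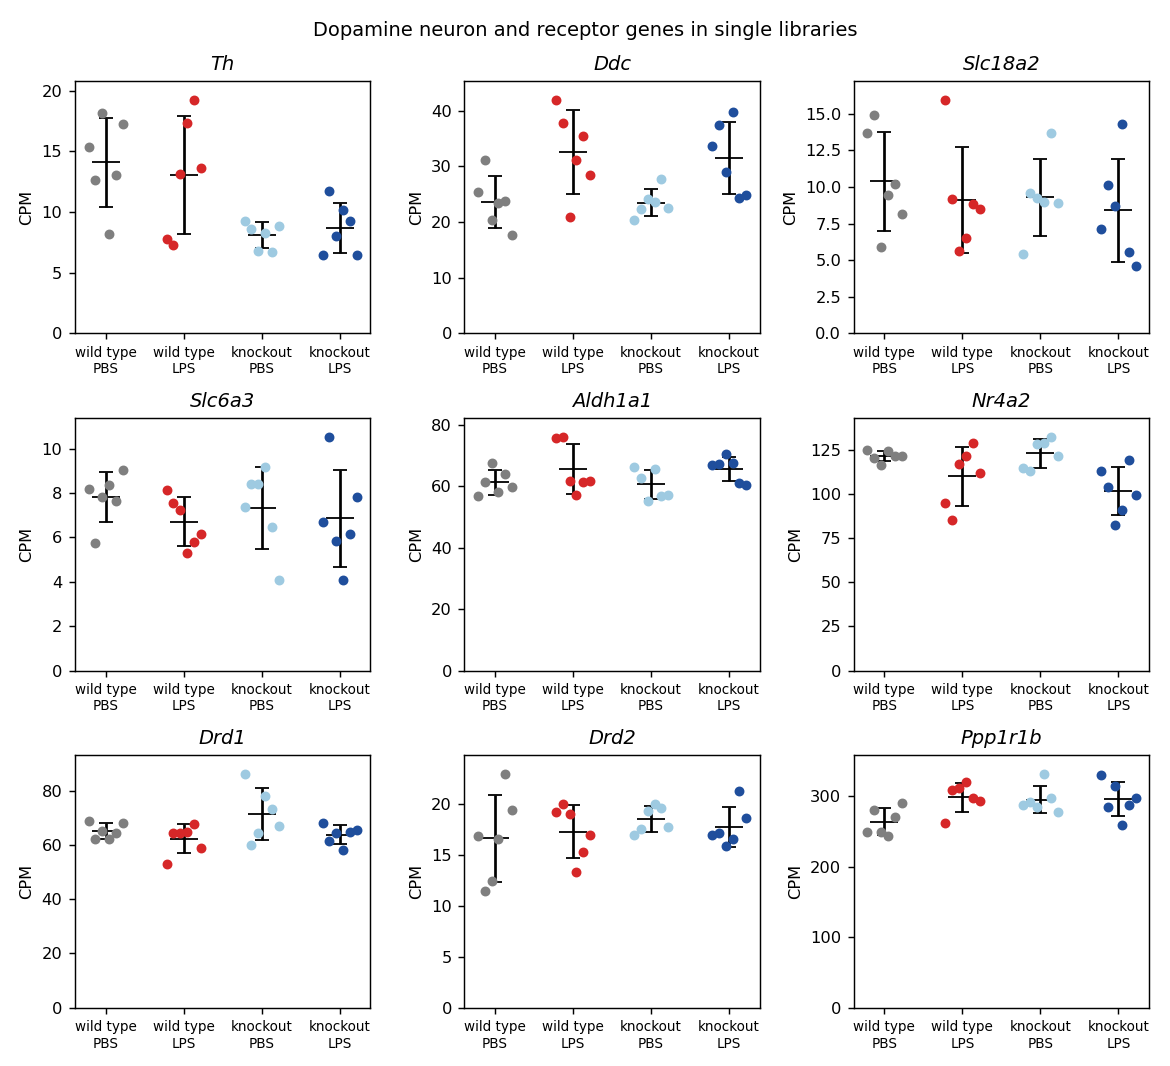
Level in CPM (vertical axis, from 0) of the 9 tested genes in each library (points), with the group mean and SD (bars, n = 6), for the 4 groups. The groups compared overlap in each gene, Ddc lies higher after LPS in both genotypes, and 3 of the 12 wild type libraries have Th at the level of the knockout libraries.

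Th (chromosome 7, 142892752 to 142931128, minus strand, GRCm38) encodes tyrosine hydroxylase, the rate-limiting enzyme of dopamine synthesis. The lowest, median and highest levels were 8.17, 14.2 and 18.2 CPM after PBS and 7.28, 13.4 and 19.3 after LPS in wild type, and 6.72, 8.465 and 9.27 after PBS and 6.47, 8.64 and 11.7 after LPS in knockout. Wild type libraries thus spread widely, while the knockout libraries kept to the lower end of that range and all 6 of each injection lay under the matching wild type mean. The LPS difference was -0.08 ± 0.18 (log2, SE; adjusted p = 0.83) in wild type and 0.07 ± 0.21 (adjusted p = 0.902) in knockout. Between genotypes the difference was -0.78 ± 0.19 after PBS (95% interval -1.17 to -0.39) and -0.63 ± 0.20 after LPS (-1.03 to -0.23). The unadjusted edgeR p-values were 0.000249 and 0.00268, and the adjusted ones 0.102 and 0.119, so neither was called. Leaving out wild type LPS replicates 1 and 2 brought both past the threshold, at -0.78 (adjusted p = 0.0189) and -0.89 (adjusted p = 0.00182), and turned the wild type LPS difference to 0.18 (adjusted p = 0.509). Leaving out 1 wild type library also made a call in 3 cases, after PBS without wild type PBS replicate 4 (-0.91, adjusted p = 0.0109) and after LPS without wild type LPS replicate 1 (-0.73, 0.035) or 2 (-0.75, 0.0248). The libraries left out in these fits held the lowest Th of their groups, so a wider gap or smaller spread follows from that choice. These calls are thus no further evidence of a genotype difference. With no filter on low counts the adjusted p-values were 0.000389 and 0.0147. That setting called more genes in general, 88 against 19 after PBS and 293 against 151 after LPS.

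The wild type libraries with little Th were the 3 with few olfactory bulb transcripts. Wild type PBS replicate 4 had Th at 8.17 CPM, against 12.6 to 18.2 CPM in the other 5. Wild type LPS replicates 1 and 2 had 7.81 and 7.28 CPM, against 13.1 to 19.3 CPM in the other 4. After removal of group means, Th followed the summed bulb markers over the 24 libraries with Pearson r = 0.776 (permutation p = 0.00159, adjusted over 135 pairs 0.0429) and Spearman rho = 0.637 (permutation p = 0.00417, adjusted 0.113). Without wild type LPS replicate 2 and wild type PBS replicate 4, the 2 libraries farthest from the median of Th, r was 0.618 (permutation p = 0.0326, adjusted 0.431), and without wild type LPS replicates 1 and 2 it was 0.58 (permutation p = 0.0316, adjusted 0.495), so the call rests on these libraries. Within the groups of 6, r was 0.922 in wild type PBS and 0.901 in wild type LPS, but -0.115 in knockout PBS and 0.151 in knockout LPS. The sum is mostly Calb2 and Fabp7 by counts, which does not show how much each marker contributes to these r values. Correlations of Th with single bulb markers were not tested. Slc6a3, which marks midbrain dopamine neurons more narrowly than Th does, gave r = -0.139 with the bulb markers (permutation p = 0.394, adjusted 0.627).

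The bulb markers themselves differed between genotypes. Of 9 tested, edgeR called 4 lower in knockout after PBS and 5 lower after LPS, and 0 higher in either. DESeq2 called 0 after PBS, with 9 at an unadjusted p under 0.05, and 4 after LPS. After PBS it gave an adjusted p to 10618 genes, against 14380 in edgeR, and none to S100a5, Omp or Doc2g. Their absence from its calls is thus not a failed test. With 1 library left out, the calls after PBS were lost in 13 of 24 fits for Doc2g and 8 for Fabp7 and in 0 for S100a5 and Omp, and those after LPS in 10 for Omp, 8 for Eomes, 7 for Sp8 and 0 for S100a5 and Cdhr1. Omp, the olfactory marker protein, was at 0 to 82 counts in wild type PBS libraries and at 0 to 3 counts in knockout PBS libraries. S100a5 was at 0 to 83 counts against 0 to 5 in the same groups, and at 0 to 37 against 0 to 1 after LPS. Doc2g, a gene of bulb mitral and tufted cells, was at 14 to 92 counts against 7 to 22 after PBS. The 10 markers summed to 185.4 to 311.9 CPM after PBS and 150.7 to 255.1 after LPS in wild type, and 180.4 to 209.7 after PBS and 149.3 to 166.8 after LPS in knockout. The part of these transcripts in the genotype difference of Th was not tested. Noradrenaline neurons are a further source of Th, and 0 of their 4 markers passed the filter, with sums of 2.17 to 8.196 CPM per library.

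**Figure D3:**
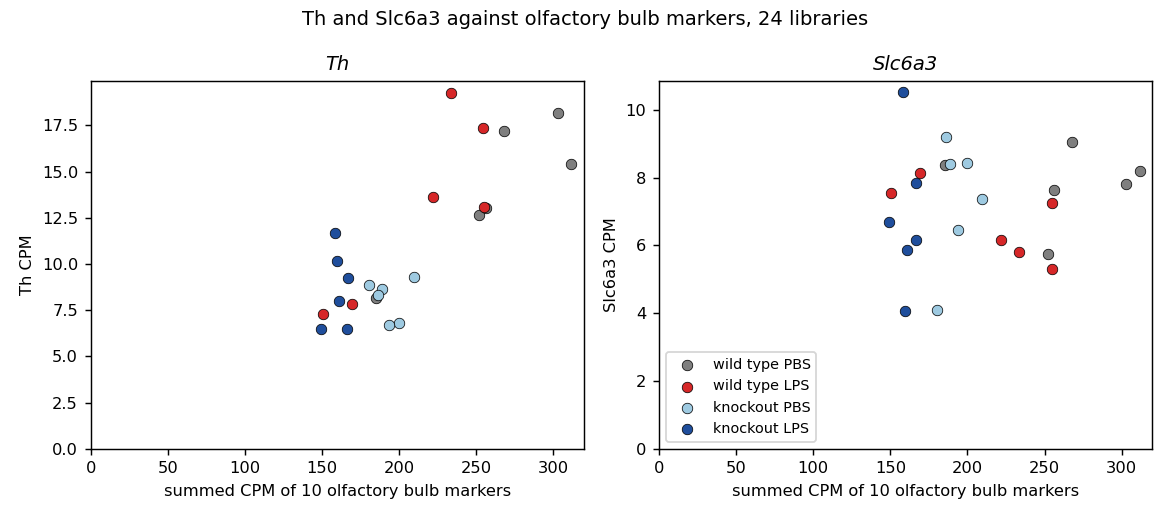
Th (left) and Slc6a3 (right) in CPM against the summed CPM of 10 olfactory bulb markers, 1 point per library, coloured by group; all axes start at 0. The 3 wild type libraries with bulb sums of 150.7 to 185.4 CPM have Th at 7.28 to 8.17 CPM, among the knockout libraries, and Slc6a3 shows no such order.

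Ddc (chromosome 11, 11814101 to 11898144, minus strand) encodes the aromatic amino acid decarboxylase that turns L-DOPA into dopamine and 5-hydroxytryptophan into serotonin. Its lowest, median and highest levels were 17.65, 23.6 and 31.2 CPM in wild type PBS and 20.8, 33.3 and 42.0 in wild type LPS. In knockout they were 20.45, 23.05 and 27.7 CPM after PBS and 24.4, 31.4 and 39.7 after LPS. In wild type 5 of 6 LPS libraries, and in knockout 6 of 6, lay above the matching PBS mean, and the groups overlapped in both genotypes. Ddc rose by 0.42 ± 0.13 in wild type (log2, SE; edgeR adjusted p = 0.0177) and by 0.42 ± 0.13 in knockout (adjusted p = 0.0281). The interaction was 0.00 ± 0.18, with a 95% interval from -0.37 to 0.37. Knockout against wild type was -0.04 ± 0.14 after PBS and -0.03 ± 0.13 after LPS, the latter at 0.13 ± 0.13 without wild type LPS replicates 1 and 2. In wild type the call was lost without PBS replicate 3 (adjusted p = 0.0582), LPS replicate 1 (0.0615) or LPS replicate 2 (0.0521), and without both of the last the change was 0.25 ± 0.14 (adjusted p = 0.204). In knockout it was lost without PBS replicate 1 (0.071) or 2 (0.0592) and without LPS replicate 1 (0.0695), 2 (0.0673) or 4 (0.34 ± 0.14, adjusted p = 0.124), the last being the library with pituitary transcripts.

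Slc18a2 (chromosome 19, 59260896 to 59296012, plus strand) encodes the vesicular monoamine transporter VMAT2, which loads dopamine, serotonin and noradrenaline into vesicles. The lowest, median and highest levels were 5.92, 9.81 and 14.9 CPM after PBS and 5.62, 8.675 and 15.95 after LPS in wild type, and 5.45, 9.105 and 13.7 after PBS and 4.59, 7.905 and 14.3 after LPS in knockout. Libraries of 1 group thus differed more among themselves than the group medians did. The LPS difference was -0.25 ± 0.23 in wild type (log2, SE; 95% interval -0.71 to 0.21) and -0.15 ± 0.24 in knockout (-0.63 to 0.33). The genotype difference was -0.17 ± 0.23 after PBS and -0.08 ± 0.24 after LPS, the latter at 0.20 ± 0.26 without wild type LPS replicates 1 and 2. None passed the test, with adjusted p from 0.515 to 0.951. Both LPS intervals ended below the 0.42 by which Ddc rose, itself an estimate with error, and a difference between the 2 genes was not tested. Without wild type LPS replicates 1 and 2 the wild type LPS difference was -0.53 ± 0.24 (adjusted p = 0.123).

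Slc18a2 and Ddc moved together between libraries of a group. After removal of group means their Pearson r was 0.842 over 24 libraries (permutation p = 3e-05, adjusted over 135 pairs 0.00405) and Spearman rho was 0.824 (permutation p = 4e-05, adjusted 0.0054). Without wild type LPS replicate 1 and knockout LPS replicate 4, the 2 farthest from the median of Slc18a2, r was 0.80 (adjusted 0.0027), and without wild type LPS replicates 1 and 2 it was 0.822. Within the groups of 6, r was 0.824 and 0.833 in wild type after PBS and LPS, and 0.919 and 0.898 in knockout. Ddc also followed the sum of a list of 5 serotonin neuron markers, Tph2, Slc6a4, Fev, Gata2 and Gata3, with r = 0.685 (permutation p = 6e-05, adjusted 0.00405) and rho = 0.669 (adjusted 0.0223). That sum is weighted to Gata3 and Gata2, with 654 and 406 counts over all libraries. Slc6a4 had 310, Tph2 282 and Fev 27, and correlations with single markers were not tested. Within groups the r of Ddc with the sum was 0.935, 0.905, 0.287 and 0.792 in the same order, and without the 2 libraries farthest from the median of Ddc it was 0.581 (adjusted 0.0648), short of the threshold. For Slc18a2 and the serotonin markers r was 0.627 (permutation p = 0.00119, adjusted 0.0402) and rho 0.637 (adjusted 0.0544), and r was 0.652 (adjusted 0.0668) without the 2 farthest and 0.629 (adjusted 0.102) without wild type LPS replicates 1 and 2. Th, which shares the CRE with Slc18a2, showed no such relation, with r = -0.206 to Slc18a2 (permutation p = 0.385, adjusted 0.627) and -0.241 to Ddc (0.369, adjusted 0.627). Of the 135 pairs, 5 were called by r and 2 by both measures, Slc18a2 with Ddc and Ddc with the serotonin markers.

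The sum of the serotonin markers overlapped widely between all groups. It ranged from 10.8 to 28.5 CPM after PBS and 11.9 to 22.4 after LPS in wild type, and 10.3 to 23.9 after PBS and 15.4 to 21.9 after LPS in knockout. EdgeR and DESeq2 each called 0 of the 4 tested in wild type, with 0 at an unadjusted p under 0.05. In knockout edgeR called Gata2, a transcription factor also expressed outside serotonin neurons, at 0.72 ± 0.24 (adjusted p = 0.0463), and DESeq2 called 0. That call was lost in 11 of 24 fits that left out 1 library. Tph2, the serotonin-synthesising hydroxylase, differed by -0.17 ± 0.38 and -0.08 ± 0.37 in wild type and knockout, and Slc6a4, the serotonin transporter, by -0.49 ± 0.39 and -0.52 ± 0.37. The part of serotonin neurons in the rise of Ddc was not tested.

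**Figure D4:**
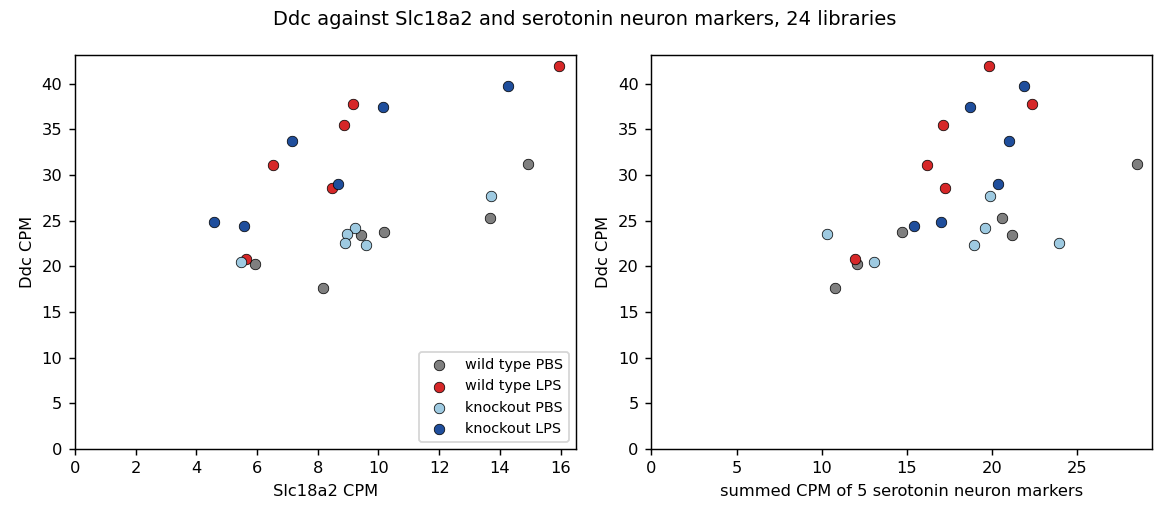
Ddc in CPM (vertical axis) against Slc18a2 in CPM (left) and against the summed CPM of 5 serotonin neuron markers (right), 1 point per library, coloured by group; all axes start at 0. Within each colour Ddc is higher where Slc18a2 is higher, and Ddc reaches 42.0 CPM in LPS libraries against 31.2 CPM in PBS libraries.

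Slc6a3 (chromosome 13, 73536747 to 73578672, plus strand) encodes the dopamine transporter, which takes released dopamine back into the neuron. Its lowest, median and highest levels were 5.74, 8.01 and 9.04 CPM after PBS and 5.31, 6.71 and 8.14 after LPS in wild type, and 4.10, 7.88 and 9.19 after PBS and 4.07, 6.43 and 10.5 after LPS in knockout. The groups overlapped, and knockout LPS libraries spread most. The LPS difference was -0.20 ± 0.19 in wild type (log2, SE; 95% interval -0.58 to 0.17) and -0.16 ± 0.19 in knockout (-0.54 to 0.22), and the genotype difference was -0.04 ± 0.18 after PBS and 0.00 ± 0.18 after LPS. A genotype difference as large as that of Th after PBS lay outside the interval of Slc6a3, -0.41 to 0.32, though a difference between the 2 genes was not tested. The count ratio of Th to Slc6a3 was 1.83 ± 0.48 (SD, n = 6) after PBS and 2.09 ± 1.05 after LPS in wild type, and 1.20 ± 0.50 after PBS and 1.38 ± 0.60 after LPS in knockout. Between libraries Slc6a3 followed neither Th (r = -0.21, permutation p = 0.281, adjusted 0.596) nor Slc18a2 (r = -0.157, permutation p = 0.51, adjusted 0.702).

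Nr4a2 (chromosome 2, 57106830 to 57124003, minus strand) encodes Nurr1, an orphan nuclear receptor needed to form and maintain midbrain dopamine neurons. It is also expressed in other brain regions, including cortex, and is induced by neuronal activity. The lowest, median and highest levels were 116.5, 121.3 and 124.7 CPM in wild type PBS and 85.2, 114.7 and 128.7 in wild type LPS. In knockout they were 112.7, 124.7 and 132.3 CPM after PBS and 82.6, 101.6 and 119.2 after LPS. The wild type PBS libraries lay within a narrow band, and all 6 knockout LPS libraries lay under the knockout PBS mean, 4 of them under every knockout PBS library. Nr4a2 fell by 0.28 ± 0.08 on the log2 scale in knockout (SE; edgeR adjusted p = 0.00805), and this call held in all 24 fits that left out 1 library and in the 6 other alternatives. In wild type the difference was -0.14 ± 0.07 (adjusted p = 0.21), and it was -0.02 ± 0.07 without LPS replicates 1 and 2, which had 95.03 and 85.2 CPM. The interaction was -0.14 ± 0.11 (95% interval -0.36 to 0.07), so the LPS change was not shown to differ between genotypes, and it was -0.26 ± 0.09 (adjusted p = 0.146) without those 2. Knockout against wild type after LPS was -0.13 ± 0.08 (adjusted p = 0.562) with all libraries and -0.24 ± 0.07 (adjusted p = 0.0402) without them.

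Among 11 genes induced by neuronal activity, Egr1 (-0.24 ± 0.06, edgeR adjusted p = 0.00729) and Arc (-0.41 ± 0.12, adjusted p = 0.0237) fell with LPS in knockout, and in wild type Junb (0.64 ± 0.13, adjusted p = 0.000141) and Btg2 (0.62 ± 0.20, adjusted p = 0.0233) rose. In each genotype 18.2% of the list was thus called, beside 18.1% of all genes in wild type and 10.9% in knockout. The calls of Arc and Btg2 were lost in 5 and 4 of the 24 fits that left out 1 library and with DESeq2, and Btg2 was at 0.38 ± 0.21 (adjusted p = 0.212) without wild type LPS replicates 1 and 2. In the interaction edgeR called 0 of the 11, with 3 at an unadjusted p under 0.05, so the genotypes were not shown to differ. The list's median difference was -0.18 in knockout and 0.15 in wild type, beside -0.0015 and -0.00885 over all genes. Summed, these genes ranged from 790.6 to 982.2 CPM in knockout PBS, 616.0 to 954.8 in knockout LPS, 619.9 to 917.5 in wild type PBS and 671.3 to 961.4 in wild type LPS. Within groups Nr4a2 did not follow that sum (r = 0.269, permutation p = 0.263, adjusted 0.592). The part of these genes in the fall of Nr4a2 was not tested.

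Pitx3 (chromosome 19, 46135685 to 46148326, minus strand), a homeobox factor of midbrain dopamine neurons, was scarce, with a count in 9 of 24 libraries. Wild type PBS libraries held 4 counts in all, wild type LPS 3, knockout PBS 1 and knockout LPS 2, and no library held more than 2. Over the depths of the 24 libraries, a count of 0 allows a level of up to 0.574 to 1.29 CPM (3 counts, counting error only), so a difference between groups was not detectable at this depth.

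Aldh1a1 (chromosome 19, 20492715 to 20643465, plus strand) encodes an aldehyde dehydrogenase that makes retinoic acid and marks a ventral subset of midbrain dopamine neurons. Its lowest, median and highest levels were 56.6, 60.5 and 67.5 CPM after PBS and 57.0, 61.7 and 76.0 after LPS in wild type, and 55.2, 59.8 and 66.3 after PBS and 60.2, 67.0 and 70.5 after LPS in knockout. The highest wild type LPS values, 75.5 and 76.0 CPM, were those of replicates 1 and 2, and the other 4 held 57.0 to 61.8 CPM. The LPS difference was 0.09 ± 0.07 in wild type (log2, SE; adjusted p = 0.4175), turning to -0.02 ± 0.07 without those 2, and 0.11 ± 0.07 in knockout (adjusted p = 0.382, 95% interval -0.03 to 0.26). Genotype differences were -0.01 ± 0.07 after PBS and 0.01 ± 0.07 after LPS. An unstranded count could include C730002L08Rik, which overlaps Aldh1a1 on the other strand and had 106 counts in all against 5832. Between libraries Aldh1a1 went against Nr4a2, with r = -0.716 (permutation p = 0.00095, adjusted 0.0402) and rho = -0.638 (adjusted 0.111). That r was -0.481 (adjusted 0.495) without wild type LPS replicates 1 and 2 and -0.625 (adjusted 0.204) without the 2 libraries farthest from the median of Nr4a2, so the call rests on those libraries.

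Drd1 (chromosome 13, 54051183 to 54055705, minus strand) encodes the D1 receptor of striatal neurons of the direct pathway. The lowest, median and highest levels were 62.0, 64.8 and 68.8 CPM after PBS and 53.05, 64.5 and 67.9 after LPS in wild type, and 59.95, 70.2 and 86.2 after PBS and 58.3, 64.6 and 68.0 after LPS in knockout. The knockout PBS group spread most and held the 3 highest values. The LPS difference was -0.06 ± 0.07 in wild type (log2, SE; adjusted p = 0.66) and -0.16 ± 0.07 in knockout (95% interval -0.31 to -0.02, adjusted p = 0.166). Knockout against wild type was 0.14 ± 0.07 after PBS (adjusted p = 0.579) and 0.04 ± 0.07 after LPS (adjusted p = 0.917).

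Drd2 (chromosome 9, 49340627 to 49408177, plus strand) encodes the D2 receptor, found on striatal neurons of the indirect pathway and, as an autoreceptor, on dopamine neurons. Its lowest, median and highest levels were 11.5, 16.7 and 22.9 CPM after PBS and 13.3, 18.0 and 19.9 after LPS in wild type, and 16.9, 18.5 and 19.96 after PBS and 15.8, 17.05 and 21.3 after LPS in knockout. The wild type PBS range enclosed the other 3. LPS differences were 0.09 ± 0.13 in wild type (log2, SE; 95% interval -0.17 to 0.36) and -0.07 ± 0.13 in knockout (-0.33 to 0.19), and genotype differences were 0.20 ± 0.13 after PBS (adjusted p = 0.697) and 0.03 ± 0.13 after LPS (adjusted p = 0.963). Counts of Drd1 exceeded those of Drd2 by a ratio of 4.13 ± 1.01 (SD, n = 6) after PBS and 3.70 ± 0.80 after LPS in wild type, and 3.88 ± 0.63 after PBS and 3.63 ± 0.38 after LPS in knockout. The receptors did not vary together between libraries (r = 0.00111, permutation p = 0.995, adjusted 0.998). Of the other receptors, Drd3 had 0 counts in all 24 libraries, Drd4 had 51 counts in all and was not tested, and Drd5, at 3 to 16 counts per library, differed after LPS by -0.10 ± 0.29 in wild type and -0.20 ± 0.27 in knockout.

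Ppp1r1b (chromosome 11, 98348404 to 98357796, plus strand) encodes DARPP-32, which, once phosphorylated after D1 receptor stimulation, inhibits protein phosphatase 1 in medium spiny neurons. The lowest, median and highest levels were 244.3, 260.2 and 290.6 CPM in wild type PBS and 261.7, 303.5 and 320.1 in wild type LPS. In knockout they were 277.5, 289.6 and 331.7 CPM after PBS and 260.0, 292.9 and 329.7 after LPS. In wild type 5 of 6 LPS libraries lay above every wild type PBS library, and the knockout groups overlapped each other and both wild type groups. Ppp1r1b rose by 0.18 ± 0.06 in wild type (log2, SE; edgeR adjusted p = 0.0138), a call lost without wild type PBS replicate 4 (adjusted p = 0.0616). In knockout the difference was 0.00 ± 0.05 (adjusted p = 0.98). The interaction was -0.18 ± 0.08 (95% interval -0.34 to -0.02, adjusted p = 0.433), so the genotypes were not shown to differ in this change. Knockout against wild type after PBS, which shares the wild type PBS libraries with the wild type LPS comparison, was 0.16 ± 0.06 (95% interval 0.05 to 0.28, adjusted p = 0.325).

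Among other genes of striatal projection neurons, those called after LPS were mostly lower. Of 21 tested, edgeR called 6 lower and 1 higher in wild type and 4 lower and 0 higher in knockout, or 33.3% and 19.0% of the list beside 18.1% and 10.9% of all genes. In knockout DESeq2 called 3 lower, without Adora2a. Their median difference was -0.14 in wild type and -0.16 in knockout, beside -0.00885 and -0.0015 over all genes. Those that fell in wild type included the cannabinoid receptor Cnr1 (-0.42 ± 0.09, adjusted p = 0.00046), the striatum-enriched phosphatase Ptpn5 (-0.24 ± 0.05, 0.00073) and Arpp21 (-0.21 ± 0.05, 0.00239), all called in each of the 30 alternatives. The 1 gene called higher was Pdyn, the dynorphin gene of D1 neurons (0.27 ± 0.10, adjusted p = 0.047), named after its values were seen and not called by DESeq2. In knockout the called genes were the enkephalin gene Penk (-0.21 ± 0.06, adjusted p = 0.0155), Ptpn5 (-0.17 ± 0.05, 0.0258), Bcl11b (-0.20 ± 0.06, 0.0331) and the adenosine receptor Adora2a (-0.38 ± 0.12, 0.0338), with calls lost in 3, 7, 5 and 7 of the 24 fits that left out 1 library. Between genotypes 0 were called after PBS and 0 after LPS by edgeR and by DESeq2, with 3 and 1 at an unadjusted edgeR p under 0.05. Within groups Ppp1r1b followed Drd1 with r = 0.507 (permutation p = 0.0103, adjusted 0.14) and the striatal list with r = 0.33 (permutation p = 0.132, adjusted 0.494). Of 7 genes expressed in all neurons, Snap25 (-0.36 ± 0.06, adjusted p = 5.19e-06) and Nefl (-0.18 ± 0.04, adjusted p = 0.0023) were called lower in wild type and Nefl (-0.17 ± 0.04, adjusted p = 0.00517) in knockout. Microglial markers rose, 5 of 6 in each genotype, from 176.9 CPM at the lowest in wild type PBS to 479.0 CPM at the lowest in wild type LPS when summed. The part of these marker changes in the values of Ppp1r1b and Drd1 was not tested.

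Around Th and Ddc in the pathway, 10 of 11 genes of cofactor supply and dopamine breakdown were tested. Of these, 1 rose and 1 fell in each genotype after LPS, 2 of 10, beside 18.1% of all genes called in wild type and 10.9% in knockout. Qdpr, the dihydropteridine reductase that regenerates the tetrahydrobiopterin cofactor of Th, fell by 0.60 ± 0.05 in wild type (log2, SE; edgeR adjusted p = 5.69e-13) and by 0.56 ± 0.05 in knockout (adjusted p = 9.72e-12). Its levels did not overlap between injections in either genotype, at 343.3 to 375.8 CPM against 223.1 to 246.0 in wild type and 320.0 to 400.3 against 219.7 to 269.9 in knockout. Qdpr is also abundant in oligodendrocytes, so its tags are not those of dopamine neurons alone. Maoa, monoamine oxidase A, which breaks down dopamine, serotonin and noradrenaline, rose by 0.32 ± 0.07 (adjusted p = 0.000605) and 0.26 ± 0.07 (adjusted p = 0.00839). Both genes were called in all 30 alternatives in both genotypes. Gch1, which catalyses the first step of cofactor synthesis, differed by 0.06 ± 0.26 and 0.21 ± 0.27. The list's median difference was -0.06 in wild type and 0.08 in knockout. Between genotypes edgeR and DESeq2 each called 0 of the 10, with 1 after PBS and 0 after LPS at an unadjusted p under 0.05.

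Of 11 tested genes of midbrain dopamine neuron identity, 3 were called lower after LPS in wild type, 1 in knockout and 0 higher in either. These are 27.3% and 9.09% of the list, beside 18.1% and 10.9% of all genes called. Ntsr1, the neurotensin receptor, was at -0.89 ± 0.28 (edgeR adjusted p = 0.0189), the homeobox gene En2 at -0.36 ± 0.12 (0.0238) and the potassium channel gene Kcnj6 at -0.50 ± 0.18 (0.0419) in wild type, and En2 was at -0.40 ± 0.12 (0.0164) in knockout. The wild type calls were lost in 2, 6 and 8 of the 24 fits that left out 1 library and the knockout call of En2 in 1, and DESeq2 called 1 gene in each genotype. These 3 genes are expressed in other regions too, Ntsr1 in cortex and En2 and Kcnj6 in cerebellum. The list's median difference was -0.09 in wild type and -0.10 in knockout. Between genotypes edgeR and DESeq2 each called 0 of 11, with 0 at an unadjusted p under 0.05.

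Downstream of the receptors, all 27 signalling genes were tested, and most that passed the test were lower after LPS. In wild type 2 were called higher and 10 lower, in knockout 2 higher and 7 lower, or 44.4% and 33.3% of the list beside 18.1% and 10.9% of all genes, with median differences of -0.07 and -0.11. The 2 that rose in both genotypes were Gnai2, an inhibitory G protein subunit that microglia also express (0.64 ± 0.05, edgeR adjusted p = 3.02e-13, and 0.41 ± 0.05, 8.93e-08), and, named after its values were seen, the arrestin gene Arrb2 (0.41 ± 0.08 and 0.29 ± 0.08). Among those that fell were Rgs4, a brake on G protein signalling (-0.41 ± 0.05, adjusted p = 5.89e-08, and -0.44 ± 0.05, 1.87e-08), and the adenylyl cyclase gene Adcy1 (-0.38 ± 0.05, 1.82e-08, and -0.25 ± 0.05, 0.000166). The protein kinase A subunit gene Prkar1b fell less (-0.22 ± 0.04, adjusted p = 9.37e-06, and -0.17 ± 0.04, 0.00111). Gnal and Adcy5, the G protein and cyclase that serve striatal dopamine receptors, also named after their values were seen, were also called lower in both genotypes (Gnal at -0.23 ± 0.06 in each, Adcy5 at -0.25 ± 0.06 and -0.26 ± 0.06). Knockout against wild type after LPS, Gnai2 was at -0.21 ± 0.05 (adjusted p = 0.0275) and the striatal phosphodiesterase gene Pde10a at 0.25 ± 0.06 (adjusted p = 0.0357), with calls lost in 7 and 8 of the 24 fits that left out 1 library. Of 6 microglial markers 2 were also called lower in that comparison, C1qa (-0.35 ± 0.07, adjusted p = 0.00378) and Cx3cr1 (-0.41 ± 0.09, 0.00934), and their part in the difference of Gnai2 was not tested. After PBS edgeR and DESeq2 each called 0 of 27, with 6 at an unadjusted edgeR p under 0.05, beside 1256 of all 14380 genes.

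**Figure D5:**
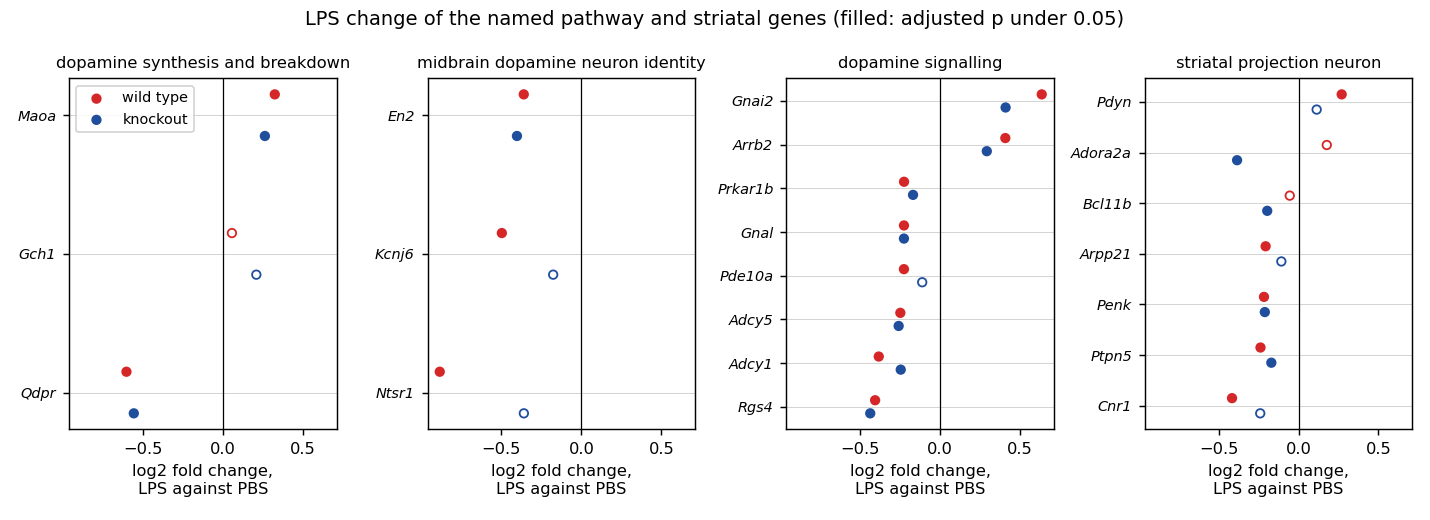
Log2 fold change after LPS (horizontal axis) of the genes of 4 lists that are named in the text, 1 row per gene, in wild type (red) and knockout (blue); filled points have an adjusted p under 0.05. Qdpr at -0.60 and -0.56 and Gnai2 at 0.64 and 0.41 stand out, and in the striatal panel 1 called point lies to the right of 0.

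Genes whose levels followed a member most closely between libraries were sought among 11993 tested genes with a mean of at least 5 CPM, by Pearson r over the 24 libraries after removal of group means. For Th they were Fam171b (r = 0.875), Meis2 (0.807), Sall1 (0.807), Ppp1r12b (0.784) and Pbx3 (0.782). For Slc6a3 they were Prkab2 (0.755), Pik3ca (0.717), Cnih4 (0.708), Lsm3 (0.697) and 1 predicted gene. For Drd2 they were Itga1 (0.693), Zc3h7a (0.681), Entpd7 (0.672), Adgrb2 (0.648) and 1 predicted gene. These values are the largest of many and are given as a description without a test. All 3 sets of values come from the same 24 libraries.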

How the data were processed

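Gene expression in left brain hemispheres was measured by QuantSeq 3′ tag sequencing in 24 libraries, 1 per animal. The deposited values are raw counts per gene, made by the authors before deposit. The submitters' processing notes list mm10 (GRCm38) and, without roles, STAR 2.7.3a, bcl2fastq, DESeq2 1.26.0, R 3.6.1 and Subread 2.0.0 with featureCounts. The annotation release, strand setting, and treatment of multiply mapped or duplicate reads stay not given in the sources used here, so reads of overlapping genes could be assigned to either. Unique molecular identifiers are not mentioned, so limits from counts cover counting error only.

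All libraries entered 1 fit with edgeR 4.0.16 in R 4.3.3: group means, TMM, filterByExpr (minimum count 10), the quasi-likelihood F test with 20 residual degrees of freedom, and Benjamini-Hochberg adjustment over 14380 genes in each of 5 comparisons. Calls needed an adjusted p under 0.05. SE on log2 fold changes come from this fit and CPM from TMM library sizes. Correlations used deviations of log2 CPM (prior count 2) from group means, with 100000 two-sided permutations within groups, adjusted over 45 member pairs and 90 pairs of a member with 1 of 9 marker lists. A further gene was named if it was on a list and called, all up to 6 and otherwise the 4 smallest p-values in the comparison, or among the 5 most like Th, Slc6a3 or Drd2; predicted genes were counted only, and some genes of the lists are not reported here by name. Alternatives were DESeq2 1.42.0, RLE size factors, no filter, the replicate number as a block, only the groups compared, and leaving out libraries. The members and the 13 lists were chosen with earlier results of these data known, and leaving out wild type LPS replicates 1 and 2 in the correlations and all alternatives for list genes were chosen after seeing the data. Positions are from GENCODE M21 and promoters from RefSeq, both on GRCm38.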

Additional observations from a re-analysis of the deposited data

Results flagged for a closer look

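In 2 of 36 groups of 6 libraries, 1 library lay far from the others, the gap to its nearest neighbour divided by the group's range being above Dixon's critical value for 6 samples. Chance flags about 1 in 20 groups, here 1.8. Slc18a2 in wild type LPS replicate 1 stood at 15.95 CPM, against 5.617 to 9.163 CPM in the other 5 libraries. The same library had the highest Ddc of its group, 42.0 CPM, and 46.2 CPM of summed pituitary markers. Ppp1r1b in knockout PBS replicate 4 stood at 331.7 CPM, against 277.5 to 297.3 CPM in the other 5. The cause was not tested in either case.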

How the results depend on the processing

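Values of single members under alternatives other than leaving out 1 library numbered 261. Of these, 250 kept their side of the threshold, some uncalled ones with a sign change of less than 1 SE. Among the rest, 1 call was lost, 6 were gained and 4 uncalled values changed sign by more than 1 SE. Of 1080 values with 1 library left out, 9 calls were lost and 3 gained. No called value of a member changed sign, and 81 of these 1341 values, all uncalled, did. The count of members called after LPS in wild type (2) was 1 without wild type LPS replicates 1 and 2, and 1 to 2 with 1 library left out. In knockout (2) it was 1 to 2. For knockout against wild type, 0 members became 1 after PBS with no filter, without wild type LPS replicates 1 and 2, or with only the 2 groups compared, and 0 to 1 with 1 library left out. After LPS 0 became 1 with no filter and 2 without those replicates, and 0 to 1 with 1 library left out. Genes called between genotypes after PBS (19) were 88 with no filter, 36 without those replicates, 33 with only the 2 groups and 13 to 32 with 1 library left out. After LPS (151) they were 293, 561 without those replicates, and 72 to 289. The interaction (1) gave 67 with no filter, 249 without those replicates, 2 with DESeq2, and 1 to 20. The cause was not tested. Replicate numbers were not shown to pair animals: same-numbered libraries correlated from -0.0611 to 0.0837 in 24 pairs, 0 of them over 0.1. In 8 of the 24 pairs the same number was the best match among the 6 libraries of the other group. Whether 8 is more than chance gives was not tested, so a pairing is not excluded. The replicate number as a block moved the genes called between genotypes to 39 after PBS and 273 after LPS and the interaction to 8, and changed no call of a member. Pairs called by correlation (5) were 2 without wild type LPS replicates 1 and 2. Without the 2 farthest libraries 2 pairs of members were called. Only Slc18a2 with Ddc among them was also 1 of the 5 called with all libraries. The pituitary hormone genes Gh and Pomc, called higher in knockout LPS against knockout PBS (5.23 and 3.13) and against wild type LPS (5.74 and 3.09), rested on knockout LPS replicate 4: without it Gh was at -0.43 and 0.01 and Pomc at -0.074 and -0.12, and the ranges with 1 library left out were -0.43 to 6.07 and -0.074 to 3.37 against knockout PBS and -0.12 to 3.52 for Pomc against wild type LPS. Depth limits Pitx3, Slc6a3, Slc18a2 and Th most.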

Other observations

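Of 9 hypothalamic markers, neuropeptide genes and transcription factors, 4 were tested. Avp, which encodes vasopressin, rose after LPS by 1.405 ± 0.26 in wild type (log2, SE; edgeR adjusted p = 6.84e-05) and by 0.89 ± 0.23 in knockout (adjusted p = 0.0053). DESeq2 did not call the knockout rise. Oxt, which encodes oxytocin, rose by 1.27 ± 0.37 in wild type (adjusted p = 0.011), a call lost without LPS replicate 2, without LPS replicates 1 and 2 together, and with DESeq2. Within groups no member followed the summed hypothalamic markers past the threshold, the closest being Slc6a3 at r = -0.48 (permutation p = 0.0538, adjusted 0.363).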
